A study of Homo sapiens with 9 samples.

Results

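The 51 genes described here encode the machinery of mitosis: the kinases and cyclins of mitotic entry, the spindle checkpoint, the kinetochore, the spindle, the cleavage furrow and condensin. They form a list of symbols chosen by role, with no threshold on a measured value. The mitotic kinesins other than CENPE, which is a member, were kept out of the list and are used beside it. All 51 were found among the 18430 genes of the expression table, and all 51 were among the 13989 genes with enough counts to test. The libraries came from A375, an established human melanoma cell line labelled with the BRAFV600E genotype in every group. There were 3 libraries of cells given vemurafenib, an inhibitor of mutant BRAF kinase, at 10 µM for 3 days, and 3 of cells given cisplatin, a platinum drug that crosslinks DNA, at 2 µM for 1 day. Both drugs were then withdrawn and the cells were collected at day 7. Another 3 libraries came from cells kept in normal culture throughout (control), for which no collection day was recorded. Dose and exposure therefore differ between the drugs, the labels leave unstated whether day 7 counts from the start or the end of exposure, and neither drug has a vehicle group or an earlier time point among these libraries. No label says whether the 3 libraries of a group came from separate cultures. Every p-value below therefore sets a difference between groups against the spread between these libraries, which may be technical.

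A cell that enters mitosis activates cyclin-dependent kinase 1 with cyclins A and B, condenses its chromosomes with the condensin complex, and attaches them to spindle microtubules through kinetochores built on the centromere. The spindle checkpoint holds the anaphase-promoting complex inactive until every kinetochore is attached, after which separase opens cohesin and the cleavage furrow divides the cell. Most of these genes are transcribed late in the cell cycle, in G2 and M, so in a bulk RNA sample their level follows how many cells are cycling as well as how much RNA each cycling cell holds. Fewer cells in G2 or M and less of these RNAs per cell cannot be told apart in these libraries.

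The promoters of many such genes carry a short element known as the cell cycle homology region (CHR), to which the MuvB complexes DREAM, MYB-MuvB and FOXM1-MuvB bind, together with CCAAT boxes bound by NF-Y. Stretches of 7 promoters are printed here because their genes span the range of responses below, ordered by the change after cisplatin. Sequences and gene starts are those of RefSeq on GRCh38.p14, each running 5′ to 3′ on the strand of the gene from 110 bases before the start to 10 bases into the gene. Capitals mark each match to the CHR core TTTGAA or to CCAAT on either strand, so TTCAAA and ATTGG are the same motifs read from the other strand. HMMR lies at chr5:163460522-163460641, plus strand, MKI67 at chr10:128126414-128126533, minus strand, PLK1 at chr16:23678779-23678898, plus strand, and CKAP2L at chr2:112764600-112764719, minus strand. CDC25B lies at chr20:3786841-3786960, plus strand, SPC25 at chr2:168890421-168890540, minus strand, and INCENP at chr11:62123901-62124020, plus strand.
HMMR: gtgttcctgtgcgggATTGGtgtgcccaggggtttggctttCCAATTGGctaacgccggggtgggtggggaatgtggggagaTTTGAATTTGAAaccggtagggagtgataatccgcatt
MKI67: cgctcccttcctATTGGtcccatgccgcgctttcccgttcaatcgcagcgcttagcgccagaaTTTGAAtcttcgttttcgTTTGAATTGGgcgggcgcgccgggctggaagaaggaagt
PLK1: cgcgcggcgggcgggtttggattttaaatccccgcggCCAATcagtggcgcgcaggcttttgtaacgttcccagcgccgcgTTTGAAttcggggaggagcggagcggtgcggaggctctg
CKAP2L: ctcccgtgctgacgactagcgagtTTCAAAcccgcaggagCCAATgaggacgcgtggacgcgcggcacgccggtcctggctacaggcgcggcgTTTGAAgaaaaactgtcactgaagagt
CDC25B: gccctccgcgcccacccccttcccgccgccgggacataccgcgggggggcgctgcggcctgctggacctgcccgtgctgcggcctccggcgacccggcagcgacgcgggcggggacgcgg
SPC25: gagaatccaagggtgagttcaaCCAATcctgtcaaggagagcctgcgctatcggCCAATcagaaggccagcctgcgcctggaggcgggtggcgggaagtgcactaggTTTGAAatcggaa
INCENP: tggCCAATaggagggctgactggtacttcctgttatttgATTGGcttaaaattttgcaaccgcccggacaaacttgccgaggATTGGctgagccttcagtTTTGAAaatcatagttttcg
In HMMR 2 abutting copies of TTTGAA stand at positions -28 and -22, counting the base before the start as -1, and a CCAAT and an ATTGG that share bases stand at -69 and -66. The MKI67 stretch has TTTGAA at -47 and -29, the PLK1 stretch at -29, and the CKAP2L stretch has TTTGAA at -17 and its reverse at -86. SPC25 and INCENP, which kept far more of their RNA after cisplatin, also have TTTGAA, at -3 and -10, with 2 and 3 CCAAT matches. The CDC25B stretch has no match to either motif in this window.

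Library totals ranged from 14481020 to 16038475 counts, and levels below are in CPM (counts scaled to library size, with edgeR's TMM factors), while different genes are compared in TPM, which also allow for transcript length. The melanocyte and melanoma markers summed to 1488 to 1655 TPM in vemurafenib libraries, 898 to 986 TPM in cisplatin libraries and 742 to 812 TPM in control libraries, with SOX10 at 1093 CPM after vemurafenib, 836 CPM after cisplatin and 1060.3 CPM in control. Of the 8 markers 5 passed the filter on low counts, 3 of them called higher and 0 lower after vemurafenib and 3 higher and 1 lower (SOX10) after cisplatin. S100B averaged 268 ± 53.2 CPM after vemurafenib, 136 ± 25.5 CPM after cisplatin and 15.1 ± 1.2 CPM in control (SD, n = 3), the pigment gene DCT averaged 275 ± 103 CPM after vemurafenib, 0.683 ± 0.326 CPM after cisplatin and 0.0863 ± 0.0978 CPM in control, and MITF averaged 82 ± 20.4 CPM after vemurafenib, 37.2 ± 3.89 CPM after cisplatin and 35.8 ± 1.54 CPM in control. The pigment gene MLANA was under 1 CPM in the mean of each group. PMEL, another of the tested markers, went the other way between the drugs. It was called lower after vemurafenib than after cisplatin (log2 difference -1.36), where the other 4 tested markers were called higher. Against control, PMEL had a log2 change of -0.04 after vemurafenib, which was not called. Blood markers, of which CD68 made up nearly the whole, summed to 102 to 149.5 TPM in vemurafenib libraries, 233 to 281 TPM in cisplatin libraries and 87.2 to 125.8 TPM in control libraries, and CD68 was called higher after cisplatin (log2 change 1.13, edgeR adjusted p 0.0001), while PTPRC was at 0.11 TPM after vemurafenib, 0.133 TPM after cisplatin and listed at 0 in control. Fibroblast markers summed to 16.95 to 27.9 TPM in vemurafenib libraries, 12.03 to 26.1 TPM in cisplatin libraries and 8.75 to 10.4 TPM in control libraries. The tested ones numbered 4, with 2 called higher and 1 lower after each drug. Their log2 changes ran from -1.61 (COL1A1) to 2.03 (LUM) after vemurafenib and from -1.48 (PDGFRB) to 2.05 (LUM) after cisplatin. Endothelial markers summed to 0.14 to 0.17 TPM in vemurafenib libraries, 0.80 to 1.64 TPM in cisplatin libraries and 1.16 to 2.30 TPM in control libraries. The 2 tested were both called lower after vemurafenib and neither was called after cisplatin. Keratinocyte markers summed to 17.3 to 21.8 TPM over all libraries. Of the 2 keratinocyte markers tested, KRT14 was called lower after both drugs (log2 change -3.23 after vemurafenib and -3.19 after cisplatin). KRT10 was called after neither (0.29 after vemurafenib and 0.35 after cisplatin). The part that these marker levels have in the values below was not tested. The first vemurafenib library stood apart from the other 2 on the third principal component of all genes, which held 5.84% of the variance, at 39.1 against -22.3 and -22.7. Its difference from the other 2 went with transcript length: across 13989 genes, the Spearman correlation of effective length with the log ratio of that library to the other 2 was -0.59, and over the 51 members it was -0.75. Genes share the libraries, so these correlations describe the data and carry no p-value. That library is named below wherever leaving it out changed a call.

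The mitotic genes were reduced to a median of 52.1% of their control level after vemurafenib and of 2.94% after cisplatin. Against control, 46 of the 51 members were lower after vemurafenib and 0 were higher, with 5 not called, in edgeR's quasi-likelihood F test at a Benjamini-Hochberg adjusted p under 0.05, adjusted over all tested genes. In the same comparison 22.9% of all tested genes were called lower and 22.0% higher. The median log2 change of the members was -0.94, against 0.01 over all tested genes, and single members ranged from -1.88 for CKAP2L to 0.10 for CENPM. The edgeR adjusted p of the 46 ran from 1.43e-06 for CKAP2L to 0.0483 for CDK1. With single libraries left out, the number lower after vemurafenib ran from 42, without the third control library, to 48, without the first vemurafenib library, where the median log2 change was -1.10. After cisplatin all 51 members were lower than in control, where 23.5% of all tested genes were called lower. Their median log2 change was -5.08, against 0.00 over all tested genes, ranging from -7.00 for HMMR to -0.81 for BUB3, and 46 of them were lower by more than 2 on the log2 scale, where 3.41% of all tested genes were. The edgeR adjusted p of the 51 ran from 6.88e-10 for HMMR and PRC1 to 4.65e-05 for SPC25.

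Set as a share of the control mean, the vemurafenib means of the members ran from 27.1% to 107.7%, and 23 members were under 50%. The cisplatin means ran from 0.774% to 57.0% of control. There 35 members were under 5% of control, 9 were between 5% and 20%, and 7 were at 20% or above. Those 7 were BUB3 at 57.0%, INCENP at 31.4%, SMC2 at 30.5%, SPC25 at 30.3%, CDC25B at 28.1%, NCAPD2 at 21.2% and ECT2 at 20.3%. Every cisplatin library was below every control library for all 51 members, where 33.8% of all tested genes showed such a gap downward. Every vemurafenib library was below every control library for 48 members, against 27.0% of all tested genes, and SPC24, CENPK and CENPM were the exceptions.

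Set directly against each other, all 51 members were higher after vemurafenib than after cisplatin, by a median of 4.10 on the log2 scale against 0.03 over all tested genes, and 23.0% of all tested genes were called higher. The difference ran from 0.58 ± 0.10 (SE) for BUB3 to 5.65 ± 0.32 (SE) for CENPA, with the largest edgeR adjusted p at 0.000532. Every vemurafenib library was above every cisplatin library for all 51 members, where 27.9% of all tested genes showed such a gap. The doses and exposures of the drugs differ, so these values stand side by side and are no comparison at a matched dose. The comparisons with control use the same 3 control libraries.

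**Figure D1:**
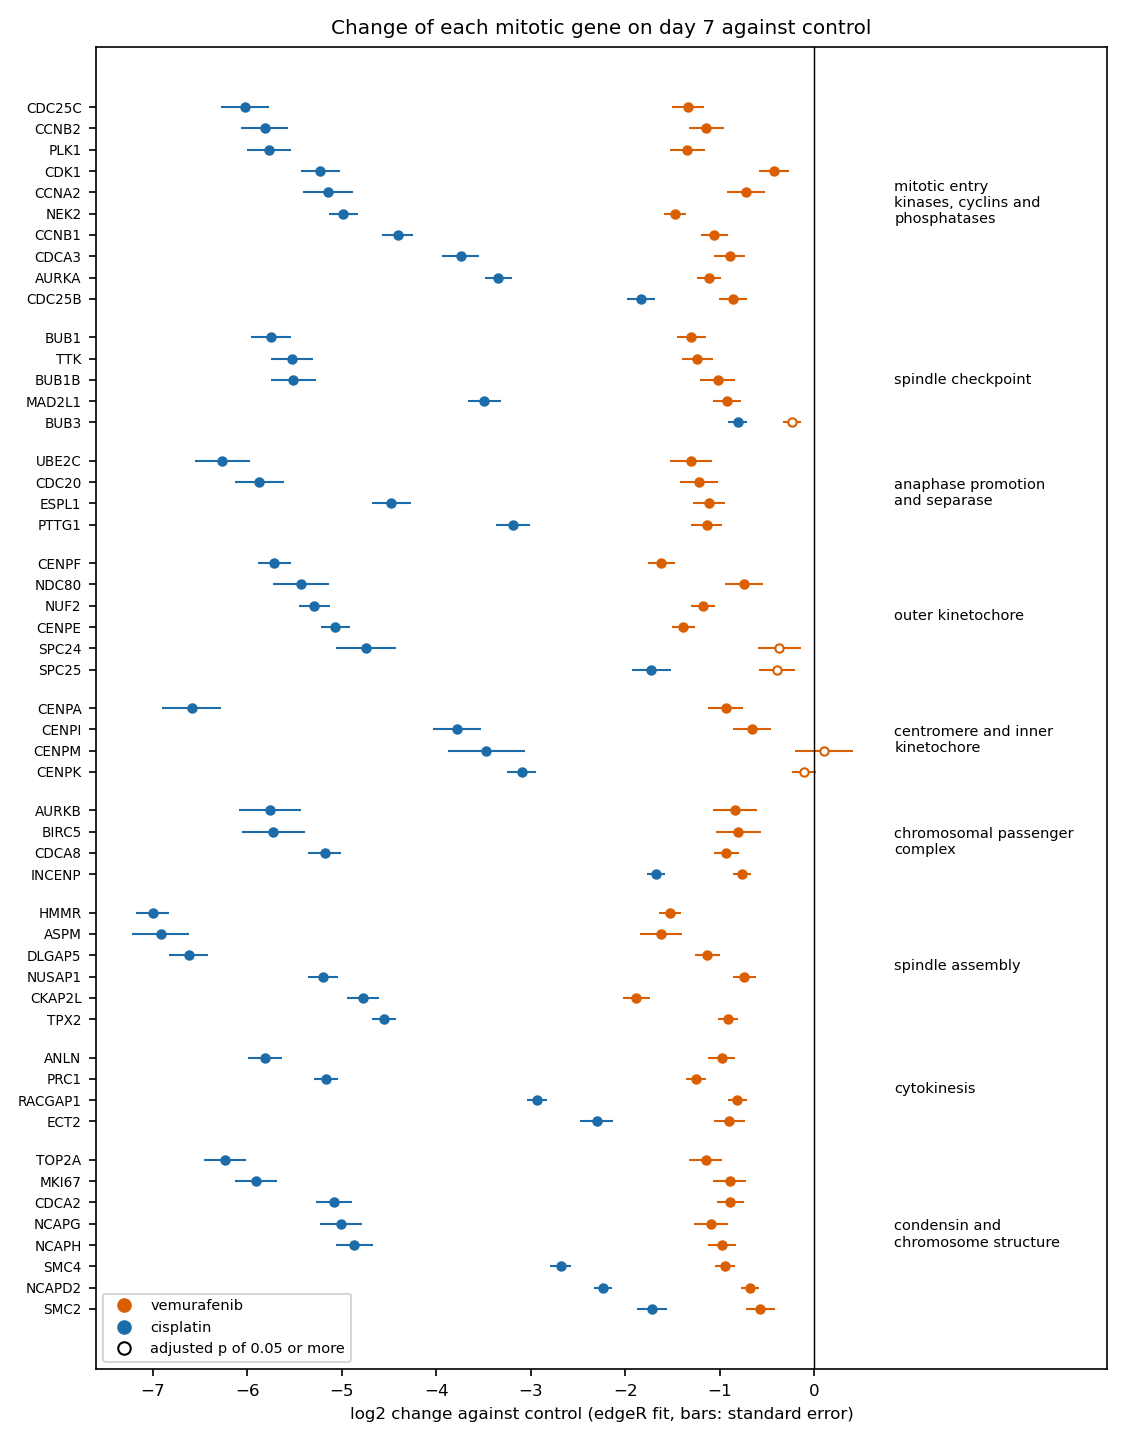
Log2 change of each of the 51 mitotic genes against control after vemurafenib (orange) and after cisplatin (blue), grouped by role, with the standard error of the edgeR fit as bars and open points for an adjusted p of 0.05 or more. The vemurafenib points lie between -1.88 and 0.10 and the cisplatin points between -7.00 and -0.81, with 5 open points, all of vemurafenib.

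Summed over the 51 members, transcript abundance was 2712 to 2835 TPM in vemurafenib libraries, 456 to 468 TPM in cisplatin libraries and 4897 to 5722 TPM in control libraries. The makeup of that sum differed between groups. PTTG1, which encodes securin, was the most abundant member in control cells at 523 ± 9.04 TPM, followed by UBE2C at 497 ± 62.7 TPM and CDC20 at 271 ± 32.6 TPM (SD, n = 3). After vemurafenib PTTG1 and UBE2C still led, at 251 ± 34.1 and 210.4 ± 41.8 TPM, followed by BUB3 at 183 ± 18.7 TPM. After cisplatin BUB3 led at 119 ± 3.76 TPM, ahead of PTTG1 at 61.9 ± 3.84 TPM and CDC25B at 51.9 ± 6.65 TPM. BUB3 thus made up 6.59% of the summed TPM of the members after vemurafenib, 25.6% after cisplatin and 3.87% in control. At the low end, 8 members fell under 10 counts in at least 1 cisplatin library, where no vemurafenib or control library had any member so low, and CENPA had the fewest, 9 counts over the 3 cisplatin libraries together. CDC25C, NDC80, SPC24, CENPI, CENPM and BIRC5 were also among these 8 members. Log2 changes of those members after cisplatin rest on few reads.

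Within groups many members shared the order of the libraries. The third control library held the highest value of its group for 46 members, at a median of 108.1% of the group's median. The first cisplatin library was highest for 38 members and the third lowest for 35, at 85.2% of the group's median. The first vemurafenib library was highest for 30 and lowest for 14. What differed between the libraries of a group besides these levels and the length trend was not tested.

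**Figure D2:**
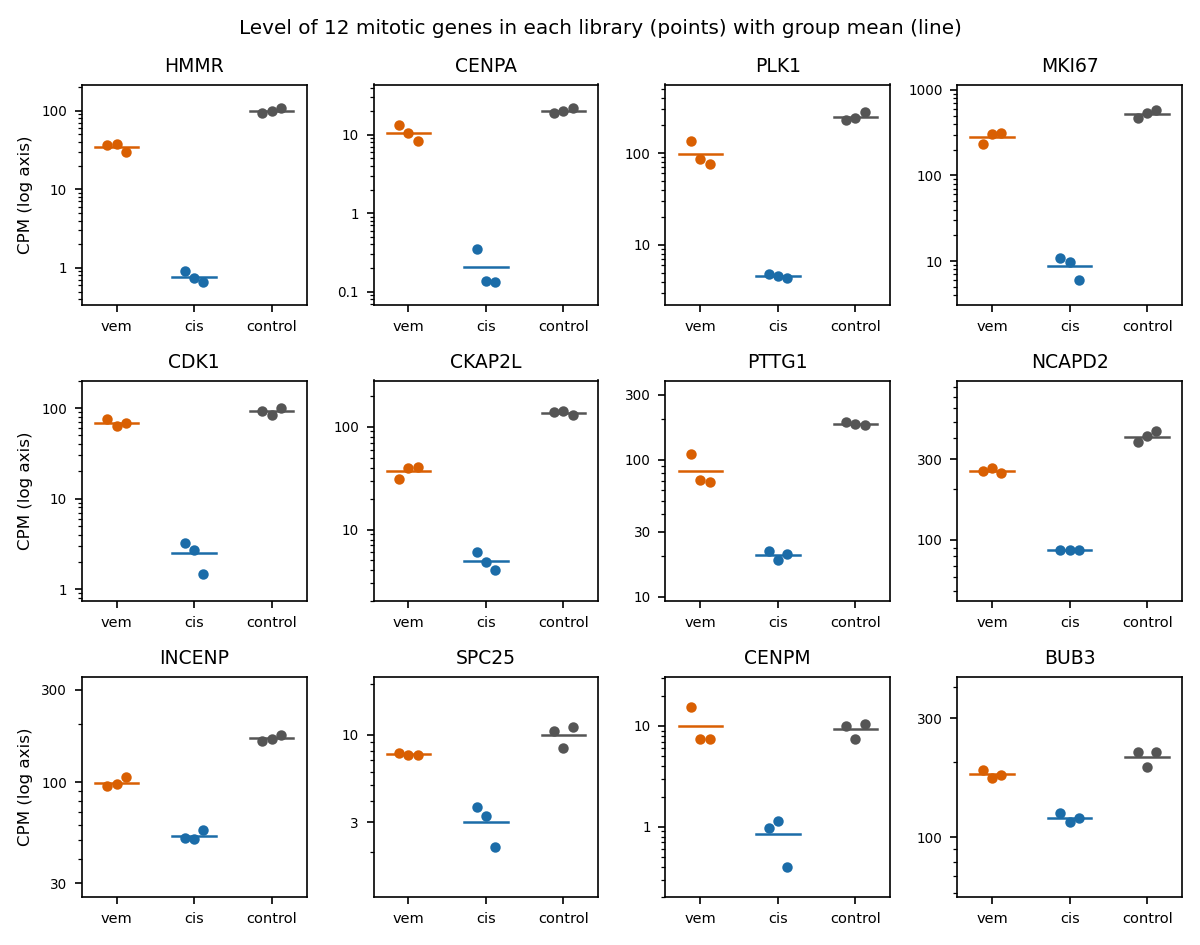
Level of 12 mitotic genes in each library in CPM on a log axis, with vemurafenib (vem), cisplatin (cis) and control from left to right and a line at each group mean. HMMR, CENPA, PLK1, MKI67 and CDK1 lie far below control after cisplatin, while BUB3 lies between 115 and 125 CPM there against 191 to 220 CPM in control, and CENPM overlaps with control after vemurafenib.

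The 10 genes of mitotic entry were lower than control after vemurafenib in every case (median log2 change -1.08) and after cisplatin in every case (median -5.07). For this and each role group below, the shares of all tested genes called lower were 22.9% after vemurafenib and 23.5% after cisplatin. Log2 changes of single genes are given with their standard error. NEK2 is a kinase of centrosome separation. NEK2 had 23.3, 22.6 and 20.4 CPM in vemurafenib libraries, 2.08, 2.17 and 1.53 CPM in cisplatin libraries and 57.3, 62.4 and 64.1 CPM in control libraries. All 3 groups were apart, with a log2 change of -1.47 ± 0.12 (SE) after vemurafenib and -4.99 ± 0.15 after cisplatin. PLK1, the polo-like kinase that drives entry and spindle assembly, followed the same order. PLK1 had 134, 85.4 and 75.8 CPM in vemurafenib libraries, 4.78, 4.55 and 4.4 CPM in cisplatin libraries and 227, 243 and 278 CPM in control libraries. The first vemurafenib library was the highest of its group and still below each control library, and the log2 changes were -1.34 ± 0.18 after vemurafenib and -5.77 ± 0.23 after cisplatin. AURKA, the centrosomal Aurora kinase, kept more of its RNA after cisplatin. AURKA had 63.6, 50.7 and 47.7 CPM in vemurafenib libraries, 11.1, 11.8 and 11.5 CPM in cisplatin libraries and 104, 117 and 128 CPM in control libraries. No groups overlapped, with log2 changes of -1.11 ± 0.13 after vemurafenib and -3.34 ± 0.14 after cisplatin. CCNB1 encodes cyclin B1, which activates CDK1. CCNB1 had 125, 92.9 and 84.1 CPM in vemurafenib libraries, 10.6, 9.5 and 9.39 CPM in cisplatin libraries and 207, 194 and 225 CPM in control libraries. Its log2 changes were -1.06 ± 0.14 after vemurafenib and -4.41 ± 0.17 after cisplatin.

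CDK1, the kinase that these cyclins activate, changed least of the entry genes after vemurafenib. CDK1 had 75.8, 64.1 and 67.6 CPM in vemurafenib libraries, 3.25, 2.71 and 1.47 CPM in cisplatin libraries and 92.9, 84.6 and 101 CPM in control libraries. Every vemurafenib library was below every control library, but the log2 change was only -0.42 ± 0.16 and its edgeR adjusted p was 0.0483. The call was lost with scaling by total counts (0.108 in edgeR) or by the upper quartile (0.0607), with no filter on low counts (0.0524), and in limma on log2(TPM + 1) and log2(TPM + 0.1) (adjusted p 0.162 and 0.256). With single libraries left out it was lost too: the edgeR adjusted p was 0.111, 0.0687 and 0.151 without the first, second or the third control library. It was 0.118 and 0.0859 in edgeR without the second or the third vemurafenib library, and 0.0732 without the second cisplatin library. After cisplatin the log2 change of CDK1 was -5.23 ± 0.21, and the difference between the drugs was 4.80 ± 0.21.

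The CDC25 phosphatases, which remove the inhibitory phosphates from CDK1, include CDC25C and CDC25B. CDC25C had 10.7, 7.29 and 7.16 CPM in vemurafenib libraries, 0.346, 0.271 and 0.333 CPM in cisplatin libraries and 21.9, 20.5 and 21 CPM in control libraries. CDC25B had 182, 131 and 130.5 CPM in vemurafenib libraries, 67.3, 77.4 and 81.7 CPM in cisplatin libraries and 233, 283 and 289.8 CPM in control libraries. After cisplatin the log2 change was -6.02 ± 0.26 for CDC25C and -1.83 ± 0.15 for CDC25B, the nearest to 0 of the entry genes. The cisplatin value of CDC25C rests on 14 counts in all. After vemurafenib the log2 changes of CDC25C and CDC25B were -1.34 ± 0.17 and -0.86 ± 0.15. Among the others of this group, the mitotic cyclins CCNA2 and CCNB2 also fell in both comparisons. CCNA2 averaged 52.3 ± 0.791 CPM after vemurafenib, 2.44 ± 1.27 CPM after cisplatin and 86.1 ± 12.3 CPM in control (SD, n = 3), and CCNB2 averaged 49.9 ± 14.5 CPM after vemurafenib, 1.95 ± 0.54 CPM after cisplatin and 110.1 ± 4.29 CPM in control. CDCA3, an adaptor for the degradation of WEE1, averaged 39.7 ± 10.7 CPM after vemurafenib, 5.5 ± 0.416 CPM after cisplatin and 73.7 ± 7.03 CPM in control. The vemurafenib call for CCNA2 (edgeR adjusted p 0.0121) was lost without the third control library, at 0.0599 in edgeR, and in limma on log2(TPM + 0.1), at an adjusted p of 0.12.

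The spindle checkpoint genes TTK, BUB1, BUB1B and MAD2L1 were lower than control in both drug groups, and BUB3 passed the test after cisplatin but not after vemurafenib. The median log2 change of the 5 genes was -1.02 after vemurafenib and -5.51 after cisplatin. BUB1 had 31.6, 31.9 and 30.4 CPM in vemurafenib libraries, 1.87, 1.43 and 0.999 CPM in cisplatin libraries and 63.3, 77.2 and 90.8 CPM in control libraries. BUB1 is the kinase that marks centromeres for checkpoint and cohesin protection, and all 3 groups were apart, with log2 changes of -1.30 ± 0.15 after vemurafenib and -5.75 ± 0.21 after cisplatin. BUB1B encodes BUBR1, a part of the complex that inhibits the anaphase-promoting complex. BUB1B had 50.5, 52 and 55.6 CPM in vemurafenib libraries, 3.74, 1.7 and 1.6 CPM in cisplatin libraries and 96.4, 107 and 117 CPM in control libraries. Its log2 changes were -1.02 ± 0.18 after vemurafenib and -5.51 ± 0.24 after cisplatin. BUB3, the propeller protein that BUB1 and BUBR1 bind and that also has roles outside mitosis, stood apart from its partners. BUB3 had 186, 172 and 177 CPM in vemurafenib libraries, 125, 115 and 119 CPM in cisplatin libraries and 219.6, 191 and 220.0 CPM in control libraries. Cisplatin libraries were below all others, with a log2 change of -0.81 ± 0.10 and an edgeR adjusted p of 4.58e-05. After vemurafenib its libraries did not overlap with control, but the log2 change of -0.23 ± 0.10 had an edgeR adjusted p of 0.0671, which became 0.0463 without the second control library and 0.0161 without the first vemurafenib library. TTK, the kinase that starts checkpoint signalling, averaged 21.4 ± 2.14 CPM after vemurafenib, 1.09 ± 0.468 CPM after cisplatin and 50.4 ± 5.1 CPM in control, and MAD2L1, which captures CDC20, averaged 34.1 ± 4.32 CPM after vemurafenib, 5.74 ± 1.18 CPM after cisplatin and 64.5 ± 6.59 CPM in control (SD, n = 3).

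All 4 genes of anaphase onset were lower in both drug groups (median log2 change -1.18 after vemurafenib and -5.17 after cisplatin). UBE2C, the ubiquitin-conjugating enzyme of the anaphase-promoting complex, fell furthest of them in both. UBE2C had 107, 63.4 and 59.5 CPM in vemurafenib libraries, 3.05, 2.78 and 1.53 CPM in cisplatin libraries and 176, 180.0 and 210.4 CPM in control libraries. The groups did not overlap, and the log2 changes were -1.30 ± 0.22 after vemurafenib and -6.26 ± 0.29 after cisplatin. CDC20, the activator of that complex and the target of the checkpoint, was close to it. CDC20 had 133, 74.9 and 78.6 CPM in vemurafenib libraries, 4.43, 3.8 and 3.13 CPM in cisplatin libraries and 203, 218 and 245 CPM in control libraries. The first vemurafenib library was well above the other 2 and below control, with log2 changes of -1.22 ± 0.20 after vemurafenib and -5.87 ± 0.26 after cisplatin. Securin, encoded by PTTG1, kept the most RNA of this group after cisplatin. PTTG1 had 110.4, 71 and 69 CPM in vemurafenib libraries, 21.5, 18.5 and 20.4 CPM in cisplatin libraries and 189.8, 182 and 179 CPM in control libraries. Its log2 change was -1.14 ± 0.16 after vemurafenib and -3.19 ± 0.18 after cisplatin, and the drugs differed by 2.05 ± 0.17. ESPL1 encodes separase, the protease that securin blocks. ESPL1 had 52.1, 45.6 and 42.3 CPM in vemurafenib libraries, 6.09, 4.61 and 2.93 CPM in cisplatin libraries and 96.1, 95.6 and 112 CPM in control libraries. Its log2 changes were -1.11 ± 0.17 after vemurafenib and -4.48 ± 0.21 after cisplatin.

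In the outer kinetochore, which binds microtubules, 4 of 6 genes were lower after vemurafenib and all 6 after cisplatin (median log2 change -0.96 after vemurafenib and -5.18 after cisplatin). Among all tested genes 22.9% were called lower after vemurafenib and 23.5% after cisplatin. CENPF and CENPE, a large coiled-coil protein and a motor of the fibrous corona, fell furthest after vemurafenib. CENPF had 150.4, 193 and 176 CPM in vemurafenib libraries, 12.4, 9.3 and 8.66 CPM in cisplatin libraries and 493, 524 and 578 CPM in control libraries. CENPE had 28.2, 36.8 and 30.4 CPM in vemurafenib libraries, 2.63, 2.58 and 2.2 CPM in cisplatin libraries and 78.8, 85 and 85.6 CPM in control libraries. No groups overlapped, and the log2 changes after vemurafenib were -1.62 ± 0.14 and -1.39 ± 0.12, against -5.72 ± 0.17 and -5.07 ± 0.15 after cisplatin. The NDC80 complex has 4 subunits, NDC80, NUF2, SPC24 and SPC25, and its subunits are given here in turn. NDC80 had 21.3, 20.8 and 19.9 CPM in vemurafenib libraries, 1.45, 0.271 and 0.666 CPM in cisplatin libraries and 34.2, 32 and 37.6 CPM in control libraries. The vemurafenib call for NDC80 was lost in limma on log2(TPM + 0.1) (adjusted p 0.209). NUF2, its partner in the microtubule-binding end, averaged 34.1 ± 3.87 CPM after vemurafenib, 1.97 ± 0.417 CPM after cisplatin and 77.2 ± 4.11 CPM in control (SD, n = 3). Both were called lower in both drug groups, with log2 changes of -0.74 ± 0.20 and -1.18 ± 0.12 after vemurafenib and -5.43 ± 0.29 and -5.29 ± 0.16 after cisplatin.

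SPC24 and SPC25 form the other end of that complex, which docks on the inner kinetochore, and neither was called after vemurafenib. SPC24 had 24.1, 12.2 and 14.9 CPM in vemurafenib libraries, 0.969, 0.882 and 0.599 CPM in cisplatin libraries and 22.1, 18.8 and 25 CPM in control libraries. The vemurafenib and control libraries overlapped through the first vemurafenib library (log2 change -0.37 ± 0.23, edgeR adjusted p 0.206). Without that library the log2 change was -0.70, with an edgeR adjusted p of 0.00262. SPC25 had 7.74, 7.54 and 7.53 CPM in vemurafenib libraries, 3.67, 3.26 and 2.13 CPM in cisplatin libraries and 10.4, 8.36 and 11.1 CPM in control libraries. The vemurafenib libraries of SPC25 lay just under the lowest control library (log2 change -0.39 ± 0.19, edgeR adjusted p 0.115). After cisplatin SPC25 kept 30.3% of its control level, with a log2 change of -1.72 ± 0.21, and SPC24 changed by -4.74 ± 0.32. Differences between subunits were not tested.

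The centromere and inner kinetochore genes had the median nearest to 0 of the role groups after vemurafenib, with 2 of 4 lower and a median log2 change of -0.38, while all 4 were lower after cisplatin (median -3.63). Among all tested genes 22.9% were called lower after vemurafenib and 23.5% after cisplatin. CENPA, the histone H3 variant that marks centromeres, was lower in both. CENPA had 13.2, 10.4 and 8.32 CPM in vemurafenib libraries, 0.346, 0.136 and 0.133 CPM in cisplatin libraries and 18.8, 20.3 and 22 CPM in control libraries. The groups were apart, with a log2 change of -0.94 ± 0.18 after vemurafenib and -6.59 ± 0.31 after cisplatin. The cisplatin value of CENPA rests on 9 counts in all. CENPK and CENPM, subunits of the constitutive centromere network, overlapped with control after vemurafenib. CENPK had 19.97, 19.1 and 21.9 CPM in vemurafenib libraries, 2.7, 2.92 and 2.06 CPM in cisplatin libraries and 22, 21.4 and 22.3 CPM in control libraries. CENPM had 15.5, 7.36 and 7.4 CPM in vemurafenib libraries, 0.969, 1.15 and 0.40 CPM in cisplatin libraries and 10.1, 7.43 and 10.5 CPM in control libraries. Neither passed the test after vemurafenib: the log2 change was -0.11 ± 0.13 for CENPK (edgeR adjusted p 0.525) and 0.10 ± 0.30 for CENPM (edgeR adjusted p 0.804). The sign for CENPM turned to -0.34 without the first vemurafenib library, which alone was above control, and to -0.04 without the second control library. After cisplatin their log2 changes were -3.09 ± 0.15 and -3.47 ± 0.40. CENPI, another subunit of that network, averaged 7.58 ± 0.286 CPM after vemurafenib, 0.864 ± 0.347 CPM after cisplatin and 11.9 ± 1.97 CPM in control (SD, n = 3). Its call after vemurafenib (edgeR adjusted p 0.0181) was lost without the third control library, at 0.0837 in edgeR, and in limma on log2(TPM + 1) and log2(TPM + 0.1) (adjusted p 0.0858 and 0.227).

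The chromosomal passenger complex, which corrects wrong attachments and later guides cytokinesis, has Aurora B kinase and 3 partners, and all 4 genes were lower in both drug groups (median log2 change -0.82 after vemurafenib and -5.45 after cisplatin). AURKB had 58.4, 29.9 and 31.9 CPM in vemurafenib libraries, 1.94, 1.15 and 0.866 CPM in cisplatin libraries and 72.7, 69.3 and 73.1 CPM in control libraries. BIRC5 had 60.5, 34.4 and 33.7 CPM in vemurafenib libraries, 1.87, 1.76 and 0.599 CPM in cisplatin libraries and 74.9, 69.1 and 80.4 CPM in control libraries. For these, Aurora B and survivin, the first vemurafenib library stood nearer to control than to its own group, with no overlap, and log2 changes of -0.84 ± 0.23 and -0.80 ± 0.24. The call for BIRC5 (edgeR adjusted p 0.0175) was lost without the third control library (0.0599 in edgeR) and without the second (0.0593) or the third (0.0524) vemurafenib library, and in limma on log2(TPM + 0.1) (adjusted p 0.083). After cisplatin AURKB and BIRC5 changed by -5.76 ± 0.32 and -5.73 ± 0.33 on the log2 scale. CDCA8 had 43.9, 34.1 and 29.9 CPM in vemurafenib libraries, 1.73, 1.97 and 1.93 CPM in cisplatin libraries and 65.6, 70.2 and 69.6 CPM in control libraries. CDCA8 encodes borealin and changed after vemurafenib by -0.93 ± 0.13, and by -5.18 ± 0.18 after cisplatin. INCENP, the scaffold that binds the other 3, was the exception after cisplatin. INCENP had 95.1, 97.1 and 106 CPM in vemurafenib libraries, 51.3, 50.7 and 56.5 CPM in cisplatin libraries and 163, 167 and 175 CPM in control libraries. Its log2 change was -0.76 ± 0.09 after vemurafenib and -1.67 ± 0.10 after cisplatin, and the difference between INCENP and the kinase it activates was not tested.

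Spindle assembly genes had median log2 changes of -1.33 after vemurafenib and -5.91 after cisplatin, with 6 of 6 lower in each. CKAP2L, a spindle protein of dividing cells, fell furthest of all 51 members after vemurafenib. CKAP2L had 30.8, 39.7 and 40.5 CPM in vemurafenib libraries, 6.02, 4.89 and 4.0 CPM in cisplatin libraries and 139, 141 and 129 CPM in control libraries. Its log2 change was -1.88 ± 0.14 after vemurafenib, and after cisplatin it was -4.78 ± 0.17. HMMR is a microtubule-binding protein of the spindle poles. HMMR had 36.4, 37.2 and 29.9 CPM in vemurafenib libraries, 0.90, 0.746 and 0.666 CPM in cisplatin libraries and 93.3, 98.1 and 107 CPM in control libraries. No groups overlapped, with log2 changes of -1.53 ± 0.12 after vemurafenib and -7.00 ± 0.17 after cisplatin. DLGAP5, which stabilises kinetochore fibres, differed between the drugs by 5.49 ± 0.21. DLGAP5 had 33.6, 31.4 and 24.7 CPM in vemurafenib libraries, 0.831, 0.543 and 0.599 CPM in cisplatin libraries and 60.7, 64.8 and 70.7 CPM in control libraries. All its cisplatin libraries were under 1 CPM, and the log2 changes were -1.13 ± 0.13 after vemurafenib and -6.62 ± 0.20 after cisplatin. TPX2, which activates Aurora A, and NUSAP1, which bundles microtubules, marked the high end of the group. TPX2 had 198, 167 and 158 CPM in vemurafenib libraries, 13.8, 14.3 and 13.9 CPM in cisplatin libraries and 316, 317 and 351 CPM in control libraries. NUSAP1 had 106, 90.9 and 87.9 CPM in vemurafenib libraries, 5.26, 4.21 and 3.46 CPM in cisplatin libraries and 152, 158 and 165 CPM in control libraries. The log2 changes after vemurafenib were -0.91 ± 0.11 for TPX2 and -0.74 ± 0.12 for NUSAP1, and after cisplatin -4.55 ± 0.13 and -5.20 ± 0.16. ASPM, a protein of spindle poles whose loss causes microcephaly, averaged 96.6 ± 30.1 CPM after vemurafenib, 2.46 ± 0.90 CPM after cisplatin and 297 ± 14.4 CPM in control (SD, n = 3).

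All 4 cytokinesis genes were lower in both drug groups (median log2 change -0.94 after vemurafenib and -4.05 after cisplatin), and after cisplatin they split in pairs. PRC1 bundles the microtubules of the central spindle, and ANLN, anillin, is the scaffold of the contractile ring. PRC1 had 113, 105 and 95.7 CPM in vemurafenib libraries, 7.55, 6.72 and 6.59 CPM in cisplatin libraries and 243, 235 and 271 CPM in control libraries. ANLN had 112, 143 and 149 CPM in vemurafenib libraries, 5.4, 5.09 and 3.73 CPM in cisplatin libraries and 246, 259 and 293 CPM in control libraries. Their log2 changes after cisplatin were -5.17 ± 0.13 and -5.81 ± 0.18. RACGAP1 and ECT2 act together, as the subunit of centralspindlin that recruits ECT2 and as the exchange factor that switches on RhoA. RACGAP1 had 75.4, 77 and 69.6 CPM in vemurafenib libraries, 17.7, 15.9 and 17.4 CPM in cisplatin libraries and 123, 128 and 138 CPM in control libraries. ECT2 had 36.5, 55.2 and 51.9 CPM in vemurafenib libraries, 16.3, 16.4 and 21.5 CPM in cisplatin libraries and 83.9, 83.5 and 100.1 CPM in control libraries. They changed less after cisplatin, by -2.93 ± 0.11 and -2.30 ± 0.17 on the log2 scale, with no overlap with control. After vemurafenib the log2 changes were -1.26 ± 0.11 for PRC1, -0.98 ± 0.14 for ANLN, -0.81 ± 0.10 for RACGAP1 and -0.90 ± 0.16 for ECT2.

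Of the 8 genes of condensin and chromosome structure, all were lower in both drug groups (median log2 change -0.92 after vemurafenib and -4.94 after cisplatin). MKI67, the antigen used to score cycling cells, coats mitotic chromosomes, and TOP2A untangles their DNA. MKI67 had 235, 306 and 314 CPM in vemurafenib libraries, 10.7, 9.64 and 6.06 CPM in cisplatin libraries and 469, 539 and 578 CPM in control libraries. TOP2A had 245, 270.3 and 248 CPM in vemurafenib libraries, 9.97, 7.8 and 4.73 CPM in cisplatin libraries and 523, 566 and 604 CPM in control libraries. All 3 groups were apart for both genes, with log2 changes of -0.89 ± 0.17 and -1.15 ± 0.18 after vemurafenib and -5.91 ± 0.22 and -6.23 ± 0.23 after cisplatin. Condensin I consists of SMC2, SMC4, NCAPD2, NCAPG and NCAPH, and its subunits changed by unequal amounts after cisplatin. SMC2 had 59.1, 91.4 and 90.9 CPM in vemurafenib libraries, 36.4, 33.6 and 39.1 CPM in cisplatin libraries and 116, 113 and 129 CPM in control libraries. SMC4 had 164, 173 and 189 CPM in vemurafenib libraries, 54, 52.1 and 50.9 CPM in cisplatin libraries and 334, 305 and 370.4 CPM in control libraries. NCAPD2 had 254, 264 and 248 CPM in vemurafenib libraries, 86.6, 86.6 and 86.6 CPM in cisplatin libraries and 376, 409.6 and 437 CPM in control libraries. These 3 kept 30.5%, 15.6% and 21.2% of their control level after cisplatin, with log2 changes of -1.71 ± 0.16, -2.68 ± 0.11 and -2.23 ± 0.10. NCAPG and NCAPH averaged 4.87 ± 2.07 and 2.11 ± 0.712 CPM after cisplatin, against 156 ± 6.13 and 61.7 ± 6.64 CPM in control (SD, n = 3), which are log2 changes of -5.01 ± 0.22 and -4.87 ± 0.20. After vemurafenib the 5 subunits were closer together, at -0.57 ± 0.15 for SMC2, -0.94 ± 0.10 for SMC4, -0.68 ± 0.09 for NCAPD2, -1.09 ± 0.18 for NCAPG and -0.98 ± 0.15 for NCAPH. The call for SMC2 there was lost in limma on log2(TPM + 1) and log2(TPM + 0.1) (adjusted p 0.0799 and 0.081). SMC2 and SMC4 are also subunits of condensin II, which is described with the other lists. CDCA2, which brings a phosphatase to chromosomes, averaged 20.03 ± 1.85 CPM after vemurafenib, 1.09 ± 0.198 CPM after cisplatin and 37.1 ± 5.63 CPM in control.

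Other genes of the pathway were put in 12 lists by role, with earlier results of these data known, so counts over them are descriptions. The median log2 change of a list was nearer to 0 than the -0.94 of the members in 11 of 12 lists after vemurafenib. After cisplatin it was nearer to 0 than the -5.08 of the members in 12 of 12. Of all tested genes, 22.9% were called lower and 22.0% higher after vemurafenib, and 23.5% lower and 22.7% higher after cisplatin. Of the remaining inner kinetochore genes 5 of 18 were lower and 1 higher after vemurafenib and 16 lower after cisplatin (median log2 change -0.27 after vemurafenib and -1.18 after cisplatin). Of the remaining outer kinetochore genes 5 of 9 were lower after vemurafenib and 8 after cisplatin (median log2 change -0.44 after vemurafenib and -2.13 after cisplatin). HJURP, the chaperone that loads CENPA, led the inner list at 36.4 CPM after vemurafenib, 2.07 CPM after cisplatin and 85.5 CPM in control (log2 changes -1.23 ± 0.14 after vemurafenib and -5.37 ± 0.19 after cisplatin). At its other end CENPX, which also serves DNA repair, was higher after vemurafenib (0.83 ± 0.18), and CENPT had a log2 change of -0.02 ± 0.15 after cisplatin, which was not called. KNL1, the docking site of the BUB proteins, changed by -1.07 ± 0.21 after vemurafenib, SKA3 by -5.12 ± 0.21 after cisplatin, and MIS12 by 0.16 ± 0.14 after vemurafenib and -0.02 ± 0.15 after cisplatin, neither called. The rest of the checkpoint list had 3 of 7 lower after vemurafenib and 5 of 7 after cisplatin (median log2 change -0.10 after vemurafenib and -0.75 after cisplatin), from KNTC1 (-0.76 ± 0.12 after vemurafenib and -2.29 ± 0.12 after cisplatin) to MAD1L1 (0.26 ± 0.19 after vemurafenib) and MAD2L1BP (0.13 ± 0.15 after cisplatin), which were not called.

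The anaphase-promoting complex itself had 5 of 17 genes higher and 5 lower after vemurafenib, where 22.0% of all tested genes were higher and 22.9% lower, and 1 higher and 6 lower after cisplatin, where 22.7% were higher and 23.5% lower (median log2 change 0.09 after vemurafenib and -0.06 after cisplatin). ANAPC13 was the gene called higher after cisplatin, at 66.8 CPM after vemurafenib, 62.4 CPM after cisplatin and 42.6 CPM in control. ANAPC5 was highest after vemurafenib by log2 change (0.67 ± 0.12), and FZR1, its activator in G1, was lowest there (-0.78 ± 0.13). FBXO5, an inhibitor of the complex, was lowest after cisplatin (-2.17 ± 0.17). Condensin II had 2 of 3 genes lower after vemurafenib and 3 of 3 after cisplatin (median log2 change -0.50 after vemurafenib and -1.65 after cisplatin), with NCAPG2 at -0.88 ± 0.13 after vemurafenib and -3.46 ± 0.14 after cisplatin, NCAPH2 at -0.16 ± 0.19 after vemurafenib, not called, and NCAPD3 at -1.64 ± 0.13 after cisplatin. Cohesin and its regulators had 6 of 15 lower after vemurafenib and 9 after cisplatin (median log2 change -0.29 after vemurafenib and -0.76 after cisplatin). There SGO1, which protects centromeric cohesin, changed by -0.85 ± 0.14 after vemurafenib and ESCO2, an acetyltransferase of S phase, by -4.67 ± 0.33 after cisplatin. SMC1A (0.03 ± 0.12 after vemurafenib) and MAU2 (0.02 ± 0.09 after cisplatin) were at the other end and were not called.

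Of the other 25 spindle assembly genes, 13 were lower and 1 higher after vemurafenib, and 22 were lower after cisplatin (median log2 change -0.37 after vemurafenib and -1.21 after cisplatin). The shares of all tested genes, for each count given here, were 22.9% lower and 22.0% higher after vemurafenib. After cisplatin they were 23.5% lower and 22.7% higher. TROAP was lowest after both drugs (-1.11 ± 0.20 after vemurafenib and -7.02 ± 0.32 after cisplatin), HAUS7, an augmin subunit, was higher after vemurafenib (0.79 ± 0.23), and CLASP1 was at 0.28 ± 0.16 after cisplatin, not called. Among 14 other genes of mitotic entry, 10 were lower after each drug, 2 were higher after vemurafenib and 1 after cisplatin (median log2 change -0.76 after vemurafenib and -2.80 after cisplatin). WEE1, the kinase that holds CDK1 inactive, averaged 11.6 ± 0.631 CPM after vemurafenib, 50.7 ± 1.34 CPM after cisplatin and 48 ± 4.6 CPM in control (SD, n = 3). Its log2 change was -2.04 ± 0.11 after vemurafenib, below that of any of the 51 members, and 0.08 ± 0.10 after cisplatin, which was not called (edgeR adjusted p 0.563). NEK9, an activator of other NEK kinases, was higher after both drugs (0.60 ± 0.10 after vemurafenib and 0.61 ± 0.10 after cisplatin), NEK6 was higher after vemurafenib (0.98 ± 0.15), and PBK was lowest after cisplatin (-5.56 ± 0.20). The other cytokinesis genes numbered 5 of 7 lower and 1 higher after vemurafenib and 7 of 7 lower after cisplatin (median log2 change -0.76 after vemurafenib and -2.05 after cisplatin), from CIT (-1.41 ± 0.10 after vemurafenib) and CEP55 (-5.42 ± 0.19 after cisplatin) to RHOA (0.29 ± 0.09 after vemurafenib and -0.37 ± 0.09 after cisplatin).

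The 12 mitotic kinesins kept apart from the members, motors of the spindle, were lower in 12 of 12 cases after each drug. Of all tested genes 22.9% were lower after vemurafenib and 23.5% after cisplatin. The kinesins had median log2 changes of -0.99 after vemurafenib and -4.75 after cisplatin, and so lay nearest to the 51 members. KIF14 (-1.70 ± 0.25) and KIF18B (-0.50 ± 0.19) marked their range after vemurafenib, and KIF20A (-7.13 ± 0.26) and KIF20B (-2.50 ± 0.15) after cisplatin. Of 27 genes of DNA replication, 17 were lower and 0 higher after vemurafenib (median log2 change -0.54), and 27 of 27 were lower after cisplatin (median -2.40). CDT1, a licensing factor, changed most after vemurafenib (-1.60 ± 0.18) and thymidine kinase TK1 most after cisplatin (-5.06 ± 0.28), while POLA1 (0.12 ± 0.12 after vemurafenib, not called) and PCNA (-0.67 ± 0.15 after cisplatin) changed least. The medians of the replication genes were thus nearer to 0 than those of the mitotic genes in both comparisons, and the difference between the lists was not tested.

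Among 16 regulators of cell cycle transcription, 7 were lower and 1 higher after vemurafenib, and 9 were lower and 1 higher after cisplatin (median log2 change -0.16 after vemurafenib and -1.05 after cisplatin). In all tested genes the shares were 22.9% lower and 22.0% higher after vemurafenib, and 23.5% lower and 22.7% higher after cisplatin. FOXM1, which binds mitotic promoters through MuvB, averaged 139 ± 22.5 CPM after vemurafenib, 7.84 ± 2.5 CPM after cisplatin and 212 ± 26.6 CPM in control (SD, n = 3), with log2 changes of -0.62 ± 0.18 after vemurafenib and -4.76 ± 0.23 after cisplatin. The vemurafenib call for FOXM1 (edgeR adjusted p 0.0178) was lost without the third control library (0.0736 in edgeR) and without the second vemurafenib library (0.0561). MYBL2, the MYB protein of the same complexes, averaged 91.4 ± 30.5 CPM after vemurafenib, 2.98 ± 1.15 CPM after cisplatin and 102 ± 6.4 CPM in control. It was not called after vemurafenib (log2 change -0.15 ± 0.23, edgeR adjusted p 0.611), was at -0.45 with an edgeR adjusted p of 0.0191 without the first vemurafenib library, and changed by -5.09 ± 0.30 after cisplatin. CDKN1A, which encodes p21, an inhibitor of cyclin-dependent kinases, averaged 293 ± 24.4 CPM after vemurafenib, 1350.1 ± 148 CPM after cisplatin and 327 ± 40.7 CPM in control. It was the regulator called higher after cisplatin, with a log2 change of 2.05 ± 0.13, and was not called after vemurafenib (-0.16 ± 0.13, edgeR adjusted p 0.334). E2F7, a repressor of the E2F family, was the lowest of the list after vemurafenib (-1.32 ± 0.20) and RBBP4, a histone-binding subunit of MuvB, the highest (0.33 ± 0.09), and E2F2 was the lowest after cisplatin (-5.26 ± 0.28).

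Some calls in these lists rested on single libraries or on the processing. With all libraries kept, KIF18B lost its vemurafenib call under total counts (edgeR adjusted p 0.0883) and upper-quartile scaling (0.0595). It also lost the call in limma on log2(TPM + 1) and log2(TPM + 0.1) (adjusted p 0.0793 and 0.26). NCAPD3 lost its call in both limma fits (adjusted p 0.0863 and 0.0872), and E2F2 in limma on log2(TPM + 0.1) (0.0837). The vemurafenib call was lost for KIF18B without the first, second or the third control library (edgeR adjusted p 0.0856, 0.0822 and 0.161), without the second or the third vemurafenib library (0.113 and 0.112) and without the second cisplatin library (0.0681). RHOA lost it without any 1 of the control libraries (edgeR adjusted p 0.054, 0.0531 and 0.0816). HAUS7 lost it without the first control library (edgeR adjusted p 0.061), and its log2 change was 0.51 without the first vemurafenib library. Without the first vemurafenib library the vemurafenib comparison gained NCAPH2 as lower (edgeR adjusted p 0.00221) and CLASP1 (0.00976), MIS12 (0.0106) and POLA1 (0.0428) as higher. Without the second vemurafenib library it gained MAD1L1 as higher (edgeR adjusted p 0.0441). With all libraries kept, it gained CENPT as higher under total counts (edgeR adjusted p 0.0441) and in both limma fits (adjusted p 0.0197 and 0.0196). MAD2L1BP was gained as higher in both limma fits (adjusted p 0.0248 and 0.0251). Since all groups share 1 estimate of the spread, leaving out the first vemurafenib library also brought calls after cisplatin for ANAPC5 (edgeR adjusted p 0.0134), CENPX (0.00939), CLASP1 (0.00306) and RBBP4 (0.0373).

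**Figure D3:**
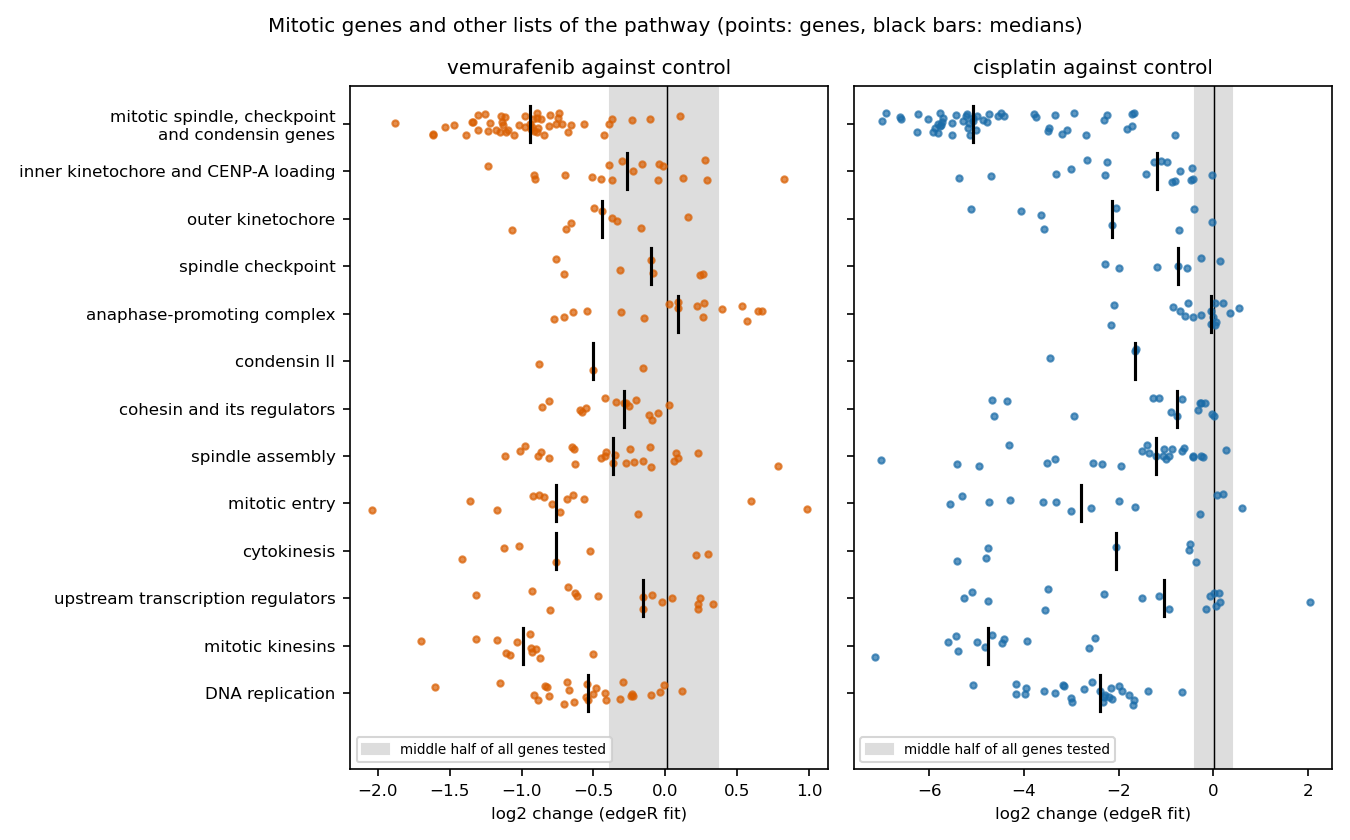
Log2 change against control of the 51 mitotic genes (top row) and of 12 other lists of the pathway, after vemurafenib (left) and after cisplatin (right), with a point per gene, a black bar at each list's median and the middle part of all tested genes in grey. The kinesins have medians of -0.99 after vemurafenib and -4.75 after cisplatin, beside -0.94 after vemurafenib and -5.08 after cisplatin for the mitotic genes, while the anaphase-promoting complex lies at 0.09 after vemurafenib and -0.06 after cisplatin.

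The promoter sequences were not used in choosing the genes. As given above, these motifs are known from promoters of many mitotic genes, so the counts here describe the list. RefSeq promoters, from 250 bases before to 50 bases after the start, were at hand for 42 of the 51 members and for 11320 of the tested genes. The CHR core TTTGAA, searched on both strands, was in 29 of 42 member promoters (69.0%), against 10.0% of the promoters of tested genes. In the window from 60 bases before to 30 after the start, it was in 21 of 42, against 2.61%. Among all 27305 promoters, of tested and other genes, the shares were 15.4% in the full window and 4.33% in the near one. CCAAT, also on both strands, was in 31 of 42 (73.8%), against 36.7% of the promoters of tested genes. At least 2 copies were in 22 of 42 (52.4%), against 13.6%. Both motifs were in 22 of 42 (52.4%), against 4.13%. The rarer CHR form TTCGAA was in 2 of 42 (4.76%), against 1.74%, and the E2F motifs TTTGGCGC and GGCGGGAA were in 1 (2.38%) and 4 (9.52%), against 1.10% and 4.89%. TTTGAA and TTCGAA are different letters and cannot share a match, while CCAAT and TTTGAA may share bases, as they do in the MKI67 stretch at -29 and -24. Member promoters held slightly less G and C than those of tested genes, with a median of 60.2% in members and 65.0% in tested genes. In all promoters the median was 58.3%, nearer to that of the members.

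The 29 members with TTTGAA in the full window had a median log2 change of -0.98 after vemurafenib and -5.23 after cisplatin. The 13 without it had -0.98 after vemurafenib and -4.87 after cisplatin. The range after cisplatin was -7.00 to -1.67 with the motif and -6.02 to -1.83 without it. A match here is a description of letters in a window, not evidence of binding, and the difference between these medians was not tested.

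**Figure D4:**
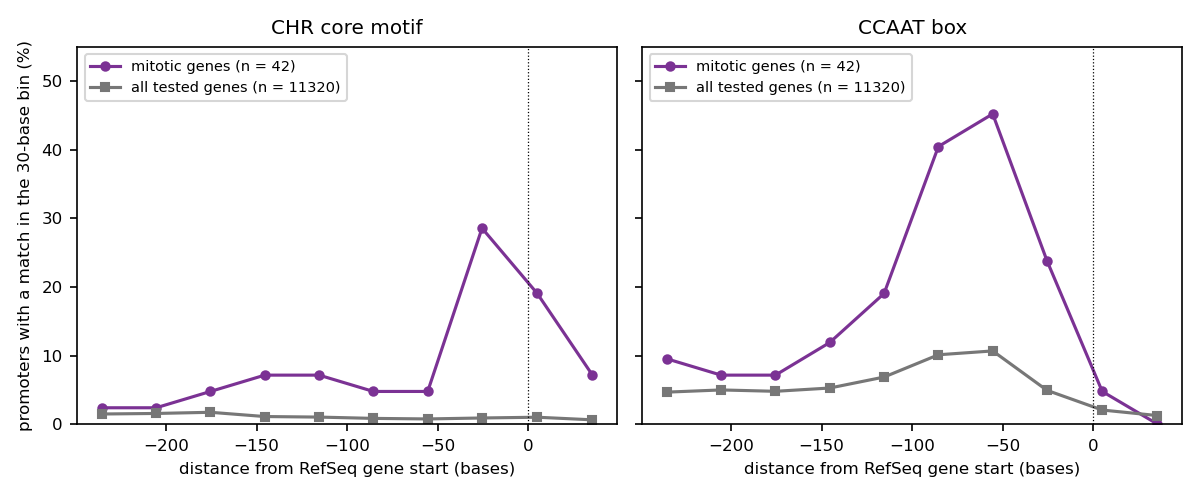
Share of promoters with a match to the CHR core TTTGAA (left) or CCAAT (right) in each 30-base bin, against the distance of the bin from the RefSeq gene start, for the 42 mitotic gene promoters (purple) and the promoters of all 11320 tested genes (grey). TTTGAA peaks from 40 to 11 bases before the start at 28.6%, against 0.89% of tested genes, and CCAAT from 70 to 41 bases before it at 45.2%, against 10.7%.

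Reads of neighbouring and copied genes limit some of these values. Exons of 15 members overlap an exon of another annotated gene in GENCODE v29, 13 of them on the opposite strand, and no label says that counting used the strand. The longest overlaps on the opposite strand were 1631 bases for NCAPG with LCORL, 1561 for SMC4 with TRIM59 and 463 for NCAPD2 with MRPL51, and on the same strand 2716 bases for PRC1 with AC068831.7 and 1787 for NUSAP1 with AC087721.2. MRPL51 averaged 98.9 CPM after vemurafenib, 85.7 CPM after cisplatin and 96.9 CPM in control, and TRIM59 averaged 4.61 CPM after vemurafenib, 4.65 CPM after cisplatin and 6.84 CPM in control. Named copies or pseudogenes exist for 15 members, among them PTTG1, UBE2C, CCNB2, CDC20 and BUB3, and how the authors' counting split reads between copies is not given in the sources used here.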

How the data were processed

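Expression was measured by RNA-seq in 9 libraries, grouped by the treatment labels into 3 per group. Per the labels' protocols, cDNA was primed with random hexamers, amplified by PCR and circularised, and no label mentions strand. The submitters' processing notes name HISAT2 2.0.4 and hg38, while the counting program and annotation were not given in the sources used here. Estimated counts per gene were made by the authors and deposited beside their TPM and FPKM, so named per the file headers, for 18430 genes. Between 13.6% and 14.1% of a library's counts were not whole (tolerance 1e-06) and all were rounded. The authors' deposited TPM served for levels between genes and for limma alternatives, and their FPKM only for effective lengths. Of the gene identifiers, 18153 matched RefSeq, and 26 symbols that had become dates were replaced.

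Genes passing edgeR's filterByExpr (13989) were scaled by TMM and fitted in edgeR 4.0.16 (R 4.3.3) as 3 group means over 9 libraries with 6 residual degrees of freedom. Two-sided quasi-likelihood F tests gave p-values for each contrast, adjusted by Benjamini-Hochberg over all tested genes (threshold 0.05). Standard errors were taken as the size of the log2 change over the root of the F statistic. The common biological coefficient of variation was 0.139. The pipeline was tested on simulated counts. Alternatives used DESeq2 1.42.0, limma 3.58.1 (pseudocounts 1 and 0.1), other scalings, other filters, a replicate block and leaving out each library. No 2 libraries agreed within counting noise. Same-numbered libraries deviated together for vemurafenib and control (correlations of 0.176, 0.137 and 0.185 across genes), a hint of pairing from the data, and less so for cisplatin and control (0.210, 0.0813 and 0.125). Between the drugs they had 0.166, 0.0130 and 0.102. Differently numbered pairs ran from -0.167 to -0.0209 for vemurafenib and control, -0.177 to 0.0518 for cisplatin and control, and -0.167 to 0.142 between the drugs. Deviations cancel within a group, so positive values in some pairs go with negative ones in others.

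The members and all lists were chosen with earlier results of these data known, so counts over them are descriptions. Values by library are given for the lowest and highest member of each role group in each comparison, each member not called, and a fixed set of well-known members. Of the other lists, the lowest and highest gene after each drug, any gene higher after cisplatin, FOXM1, MYBL2 and CDKN1A are named. A result for 1 gene is not reported here. Promoter sequences are those of RefSeq on GRCh38.p14; 9 members without one were left out of the motif counts. Without molecular identifiers, PCR copies of 1 molecule count as separate reads.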

Additional observations from a re-analysis of the deposited data

How the results depend on the processing

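In 19 alternatives, which changed the scaling, the filter, the model or the libraries used, the 51 members stayed lower after cisplatin and higher after vemurafenib than after cisplatin in each, and the number lower after vemurafenib ranged from 40 (limma on log2(TPM + 0.1)) to 48 (without the first vemurafenib library), with 0 higher. With a replicate block, 46 members were lower after vemurafenib and 51 after cisplatin, and the block changed no call of a member; after cisplatin it added a call for CENPX as lower (edgeR adjusted p 0.0347) and changed no other call of a named gene. The median log2 change of the members moved to -4.30 after cisplatin and to 3.39 between vemurafenib and cisplatin in limma on log2(TPM + 1), where adding 1 TPM shrinks the changes of genes at low levels. With libraries left out in turn, genes called ranged from 5063 to 7672 for vemurafenib, 5237 to 8642 for cisplatin and 4767 to 7157 between the drugs, and the member medians from -1.10 to -0.92, -5.18 to -4.94 and 3.996 to 4.20. Scaling by total counts moved the median of all genes after vemurafenib to 0.11 and the share of calls that were higher to 60.02%, against 49.1%, while limma gave 59.3% and 59.2%; between the drugs total counts gave 58.2%, against 52.5%. Of 969 values of members under alternatives after vemurafenib, 940 kept direction and call, 23 lost the call, 4 gained it and 2 changed sign, and all 969 kept both after cisplatin. Apart from libraries left out, the losses were CDK1 under total counts (edgeR adjusted p 0.108), upper-quartile scaling (0.0607), no filter (0.0524) and both limma fits (0.162 and 0.256), CENPI (0.0858 and 0.227) and SMC2 (0.0799 and 0.081) in both limma fits, and CCNA2 (0.12), NDC80 (0.209) and BIRC5 (0.083) in limma on log2(TPM + 0.1), while BUB3 gained a call in DESeq2 (adjusted p 0.0328). Signs turned for CENPM and for 7 genes of the other lists, none of them called in the comparison concerned, and the cause was not tested. After vemurafenib, with scaling by total counts, MAU2 was at 0.0495. After vemurafenib, in limma on log2(TPM + 1), MAU2 was at 0.0328 and PCNA was at 0.0043. After vemurafenib, in limma on log2(TPM + 0.1), MAU2 was at 0.0332 and PCNA was at 0.0044. After vemurafenib, the log2 change with 1 library left out ranged from -0.34 to 0.28 for CENPM, -0.0767 to 0.26 for CLASP1, -0.45 to 0.017 for MYBL2, -0.24 to 0.046 for PCNA and -0.057 to 0.15 for SMC1A. After cisplatin, with scaling by total counts, CENPT was at 0.0364 and MIS12 was at 0.0368. After cisplatin, with upper-quartile scaling, CENPT was at 0.0258 and MIS12 was at 0.0261. After cisplatin, in limma on log2(TPM + 1), CENPT was at 0.0633. After cisplatin, in limma on log2(TPM + 0.1), CENPT was at 0.0652. After cisplatin, the log2 change with 1 library left out ranged from -0.0699 to 0.0466 for CENPT, -0.0241 to 0.0479 for MAU2 and -0.0589 to 0.0332 for MIS12. Depth limits the members with few counts after cisplatin, where the counts bound the precision and cover counting error only.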
